A study of Homo sapiens with 6 samples.

Results

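The genes described here are the sestrins, the REDD proteins, the TSC complex with its target RHEB, and the inhibitors DEPTOR and AKT1S1, which together restrain or gate the growth kinase complex mTORC1. They are 10 genes of the 60419 listed, taken by symbol (SESN1, SESN2, SESN3, DDIT4, DDIT4L, TSC1, TSC2, RHEB, DEPTOR and AKT1S1). RNA was sequenced from 12Z, an established line of immortalised epithelial-type cells from human endometriosis labelled as wild type, in 3 libraries treated for 12 h with myrrh extract at 100 µg/mL in DMSO and 3 libraries treated with DMSO alone. All cells grew in medium with 10% charcoal-stripped serum. All libraries came from 1 cell line. Whether the replicates were grown and treated separately is not in the labels, so the p-values cover the spread among the 6 libraries, part of which may be technical.

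mTORC1 is a protein kinase complex on the lysosome that drives protein synthesis and growth when amino acids, energy and growth factors are present. RHEB, a small GTPase, switches the kinase on, and the TSC complex switches RHEB off by making it hydrolyse GTP. DDIT4 and DDIT4L (REDD1 and REDD2) act through the TSC complex. The sestrins bind GATOR2 and so hold back the amino acid branch, SESN2 being a leucine sensor. DEPTOR binds the mTOR kinase and AKT1S1 (PRAS40) binds the subunit RPTOR. SESN2 and DDIT4 are textbook targets of the stress factor ATF4. DDIT4 also responds to hypoxia and glucocorticoids.

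Libraries held 22454783 to 27588151 estimated gene counts. The keratin genes KRT8 and KRT18 and the mesenchymal gene VIM were abundant in both groups, while the epithelial gene CDH1 was under the filter on low counts (0.194 CPM in Myrrh and 0.176 CPM in DMSO). Of all genes tested, 39.3% were called higher in Myrrh and 39.1% lower, by the test given below. The 7 stromal markers all fell, with a summed level of 3101 to 3276 CPM (counts scaled to a common effective library size) in Myrrh and 10609 to 10848 CPM in DMSO. Of 5 epithelial markers tested 2 rose and 3 fell, and their list summed to 1221 to 1350.2 CPM in Myrrh and 1743 to 1832 CPM in DMSO. Endothelial markers summed to at most 0.419 CPM in Myrrh and 0.800 CPM in DMSO, with CDH5 at 0, and leukocyte markers to at most 0.583 CPM in Myrrh and 3.11 CPM in DMSO, with CD3E at 0. The 13 mitochondrially encoded mRNAs all fell (median log2 fold change -1.47) and summed to 43360 to 55423 CPM in Myrrh and 124905 to 132273 CPM in DMSO. The part of these shifts in the values below was not tested, and in bulk RNA fewer cells of a kind cannot be told apart from less RNA per cell.

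The promoters are shown first for SESN2 and DDIT4, the sestrin and the REDD gene with the highest levels in Myrrh, as the 250 bases before the start given by RefSeq on GRCh38.p14, on the gene's strand. Capitals mark matches to 4 motifs searched on both strands: the C/EBP-ATF response element bound by ATF4 (TGATGNAA), the hypoxia response element core (ACGTG), the antioxidant response element core (TGACNNNGC) and the forkhead site (GTAAACA). Of the 10 genes, 8 had a promoter entry. SESN1 and TSC2 had more than 1 window, so counts of genes below are not on the same footing as shares of windows.
SESN2 (chr1:28259268-28259517, plus strand): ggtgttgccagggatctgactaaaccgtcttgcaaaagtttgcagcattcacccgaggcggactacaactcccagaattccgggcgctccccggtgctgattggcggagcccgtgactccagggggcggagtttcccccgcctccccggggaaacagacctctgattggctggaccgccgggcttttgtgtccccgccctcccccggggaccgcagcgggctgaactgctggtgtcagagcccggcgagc
DDIT4 (chr10:72273674-72273923, plus strand): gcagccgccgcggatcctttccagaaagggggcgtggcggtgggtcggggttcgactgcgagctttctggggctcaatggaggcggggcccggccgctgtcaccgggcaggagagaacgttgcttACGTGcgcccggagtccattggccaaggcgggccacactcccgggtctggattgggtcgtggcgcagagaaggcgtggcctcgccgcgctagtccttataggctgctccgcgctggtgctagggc
The SESN2 window held none of the 4 motifs. The DDIT4 window held a hypoxia core at -125 to -121, counted in bases before the start, a motif found in 18.5% of 35116 promoter windows of this length and in 3 of the 8 genes, which are DDIT4, TSC2 and RHEB (at -81 to -77). A stretch of 30 bases before the first TSC2 start carried a C/EBP-ATF element, found in 3.14% of windows and in 1 of the 8 genes matched. Its window lies within TSC2 exons of other transcripts in GENCODE. Its capitals cover that element at -110 to -103, hypoxia cores on both strands at -114 to -109 and an antioxidant core at -121 to -113, which overlap.
TSC2 (chr16:2047860-2047889, plus strand): tgcgGCCCCGTCACGTGATGCAAggatcgc
The forkhead site was in none of the members' windows and in 2.98% of all windows, and the antioxidant core was in 2 of 8 genes and 10.9% of windows. A match is a run of letters and not a bound site, and no match says only that these letters are not in the window.

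Of the 10 genes, 9 passed the filter on low counts, and SESN3 did not. SESN2, DDIT4L, DDIT4 and RHEB rose, TSC2 fell, and SESN1, TSC1, DEPTOR and AKT1S1 were not called (edgeR's quasi-likelihood test, Benjamini-Hochberg adjustment over 16395 genes, threshold 0.05). The background was broad: 78.4% of all genes tested were called, 39.3% higher and 39.1% lower. The 5 of 9 called here are thus no larger a share than in genes at large. A call with at least a 2-fold rise was made for 3 of 9, against 11.3% of all genes, and a 2-fold fall for 0 of 9, against 18% of all genes. The 3 include DDIT4L, which passed the filter through its Myrrh libraries. The median log2 fold change was 0.12 over the 9 genes and -0.02 over all genes tested. The CPM ranges of the groups did not overlap for the same 5 genes, against 80.3% of all genes.

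**Figure D1:**
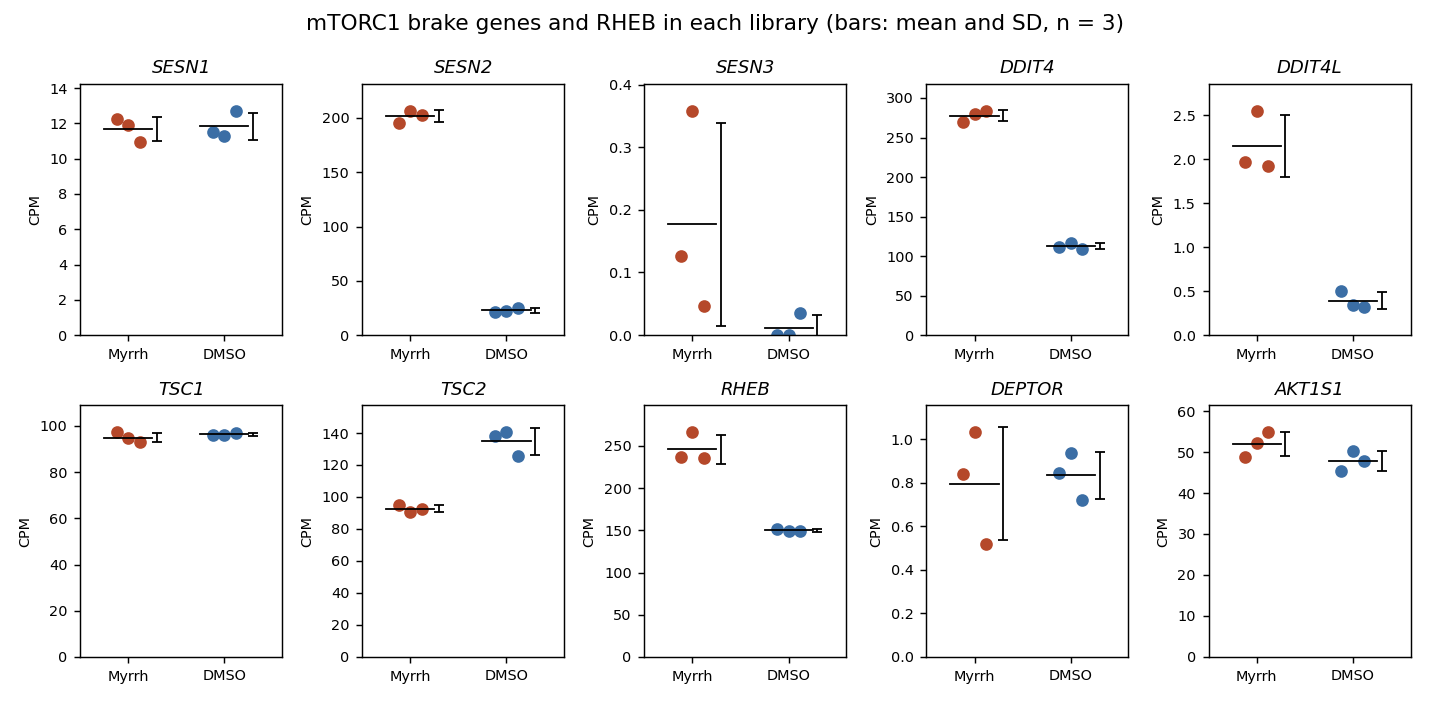
Level of each of the 10 genes in CPM (counts scaled to a common effective library size, linear axis from 0) in the 3 Myrrh and 3 DMSO libraries; points are libraries, horizontal lines are means and error bars are SD (n = 3), cut at 0 for SESN3. Of the 9 genes tested, the Myrrh points lie above every DMSO point for SESN2, DDIT4, DDIT4L and RHEB and below every DMSO point for TSC2. The groups overlap for SESN1, TSC1, DEPTOR and AKT1S1. SESN3, not tested, also has its Myrrh points (0.047 to 0.358 CPM) above its DMSO points (0 to 0.036 CPM), on 12 counts against 1.

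SESN2, the sestrin that senses leucine and is induced by stress, was at 195, 207 and 203 CPM in the Myrrh libraries, against 20.8, 22.6 and 24.9 CPM in the DMSO libraries. Every Myrrh library stood far above every DMSO library. The means were 202 ± 5.74 CPM in Myrrh and 22.8 ± 2.04 CPM in DMSO (SD, n = 3 each), a ratio of 8.85. SESN2 rose by a log2 fold change of 3.14 ± 0.06 (SE; adjusted p = 1.35e-24 by edgeR), and 0.64% of tested genes had a fold change as high. In GRCh38 SESN2 lies on chromosome 1 at 28259527 to 28282491 on the plus strand. Its longest transcript has 10 exons, and no other gene in GENCODE release 29 overlaps it.

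SESN1, another stress-responsive sestrin, was at 12.2, 11.9 and 10.9 CPM in Myrrh and 11.5, 11.3 and 12.7 CPM in DMSO. The libraries of the groups were interleaved. The log2 fold change was -0.02 ± 0.09 (adjusted p = 0.882 by edgeR), and over 15 alternative settings it ran from -0.24 to 0.04 with adjusted p from 0.0934 to 0.997. In TPM SESN1 averaged 6.02 ± 0.250 in Myrrh and 7.14 ± 0.875 in DMSO, and there the Myrrh libraries lay below the DMSO libraries (-0.21 on log2(TPM + 1)). SESN1 lies on chromosome 6 at 108986437 to 109094819 on the minus strand.

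SESN3, a sestrin linked to FOXO factors, had 3, 8 and 1 counts in the Myrrh libraries and 0, 0 and 1 counts in the DMSO libraries. That is 12 counts in Myrrh and 1 in DMSO, a ratio of 14.3 scaled to library size, with a 95% exact binomial interval of 2.11 to 611 that covers counting error only. Myrrh replicate 2 held most of the counts. With no filter edgeR gave SESN3 an adjusted p of 0.011, DESeq2 gave 0.0628, and limma on log2(TPM + 1) over every gene above 0 gave 0.332. At a floor of 3 counts per library (0.104 to 0.141 CPM) Myrrh replicate 3 and all 3 DMSO libraries were under it, and Myrrh replicate 1 was at it. SESN3 lies on chromosome 11 at 95165513 to 95232541.

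On the per-length scale of TPM, in which transcripts of a library sum to a fixed total, the sestrin transcripts summed to 88.0, 84.5 and 87.6 TPM in Myrrh and 14.7, 15.4 and 18.1 TPM in DMSO. SESN2 made up 93.0% ± 0.335 of this sum in Myrrh and 55.5% ± 0.721 in DMSO (SD, n = 3 each). SESN1 made up 6.95% ± 0.313 in Myrrh and 44.5% ± 0.696 in DMSO. For both shares the groups did not overlap, and the two-sided exact permutation test gave p = 0.1, the smallest that 3 against 3 libraries allow. The SESN3 share was 0.0350% ± 0.0316 in Myrrh and 0.0185% ± 0.0320 in DMSO (exact permutation p = 0.5). The within-library log2 ratio of SESN2 to SESN1 counts, which does not depend on scaling between libraries, was 4.11 ± 0.11 in Myrrh and 0.94 ± 0.08 in DMSO. In TPM, SESN2 stood 13.4 ± 0.669 times as high as SESN1 in Myrrh and 1.25 ± 0.0358 times as high in DMSO.

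**Figure D2:**
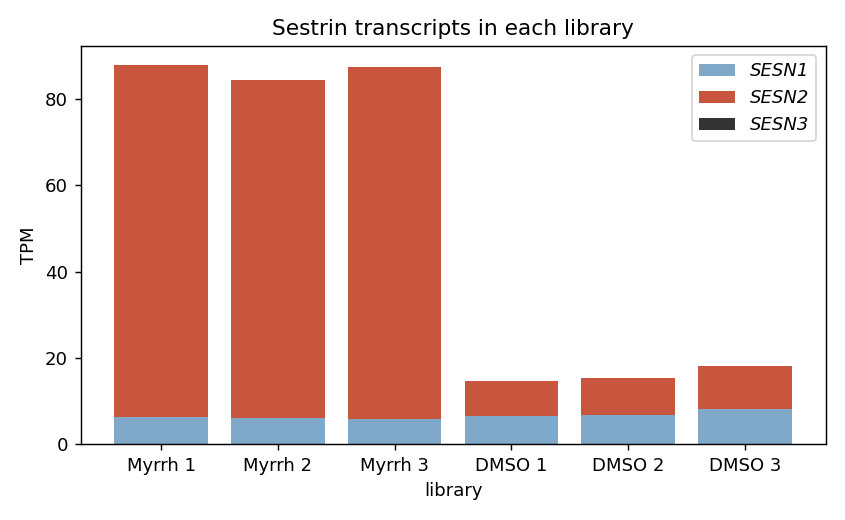
Stacked bars of sestrin transcripts in TPM in each of the 3 Myrrh and 3 DMSO libraries, by gene. The SESN1 segment is of similar height in all 6 libraries (5.77 to 6.27 TPM in Myrrh and 6.56 to 8.15 TPM in DMSO), the SESN2 segment is 78.4 to 81.8 TPM in Myrrh and 8.13 to 9.89 TPM in DMSO, and SESN3 is too low to see.

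DDIT4, the stress-induced REDD1 protein that acts through the TSC complex, was at 269.7, 279 and 284 CPM in Myrrh and 111, 117 and 109 CPM in DMSO. All Myrrh libraries lay above all DMSO libraries, with means of 278 ± 7.33 CPM in Myrrh and 112 ± 3.94 CPM in DMSO. DDIT4 rose by 1.30 ± 0.05 (adjusted p = 1.05e-17 by edgeR), a ratio of 2.47. The gene lies on chromosome 10 at 72273920 to 72276036, on the plus strand. Of its 2058 exonic bases in GENCODE, 847 are shared with DDIT4-AS1 on the opposite strand, which has no entry in the deposited counts. Whether counting used strand is not stated in the sources at hand, so reads of the pair cannot be told apart.

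DDIT4L, its paralogue REDD2, was far lower, at 1.97, 2.55 and 1.93 CPM in Myrrh and 0.505, 0.347 and 0.324 CPM in DMSO. The groups did not overlap, but the levels rest on 145 counts in Myrrh and 31 in DMSO, a ratio of 5.57 with a 95% exact binomial interval of 3.76 to 8.49 that covers counting error only. DDIT4L rose by 2.46 ± 0.29 (adjusted p = 2.29e-08 by edgeR). It passed the filter on low counts through its Myrrh libraries, as its DMSO libraries held only 12, 10 and 9 counts. For a gene so low in DMSO the filter favours a rise, and the p-value does not allow for that. On log2(TPM + 1), which shrinks the change of low genes, the difference was 0.82. The gene lies on chromosome 4 at 100185870 to 100190782.

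Together the REDD transcripts summed to 248, 229.95 and 249.5 TPM in Myrrh and 103, 105 and 101.1 TPM in DMSO, almost all of it DDIT4. The within-library log2 ratio of DDIT4 to DDIT4L counts was 7.02 ± 0.22 in Myrrh and 8.19 ± 0.35 in DMSO. The groups did not overlap in this ratio, with DDIT4L changing by the larger factor in these libraries (difference -1.17, two-sided exact permutation p = 0.1, the smallest possible). After adjustment over the 3 paralogue ratios that could be formed p was still 0.1.

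TSC2, the GTPase-activating subunit that turns RHEB off, was at 94.9, 90.6 and 92.5 CPM in Myrrh and 138, 140.4 and 125 CPM in DMSO. Every Myrrh library was below every DMSO library. TSC2 fell by 0.54 on the log2 scale (-0.54 ± 0.05, adjusted p = 4.74e-10 by edgeR), with means of 92.7 ± 2.13 CPM in Myrrh and 135 ± 8.16 CPM in DMSO. In GRCh38 it lies on chromosome 16 at 2047465 to 2089487. Its exons share 402 bases with NTHL1 and 778 with PKD1, on the opposite strand, out of 19626. NTHL1 (-0.58 ± 0.09) and PKD1 (-0.62 ± 0.06), which has near-identical pseudogene copies, fell too, and the part of shared reads in the TSC2 value was not tested.

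TSC1, hamartin, the partner that stabilises TSC2, was at 97.3, 94.6 and 93.2 CPM in Myrrh and 96.0, 96.0 and 97.1 CPM in DMSO. The ranges of the groups overlapped. Its log2 fold change was -0.02 ± 0.05 (adjusted p = 0.704 by edgeR). TSC1 was called lower when libraries were scaled by their totals alone (-0.16, adjusted p = 0.00579 by edgeR) and with a filter of 5 CPM in 3 libraries (-0.12, adjusted p = 0.0273), and its sign turned on log2(TPM + 1) (0.13, adjusted p = 0.133 by limma). Over all 15 settings adjusted p ran from 0.00579 to 0.961. The log2 ratio of TSC1 to TSC2 counts within a library was 0.04 ± 0.03 in Myrrh and -0.48 ± 0.10 in DMSO, without overlap (two-sided exact permutation p = 0.1, the smallest possible). In TPM, TSC2 was 1.88 ± 0.136 times TSC1 in Myrrh and 2.86 ± 0.192 times TSC1 in DMSO. TBC1D7, the small subunit of the TSC complex, rose by 0.36 ± 0.10, from a list of 2 relatives in which the RHEB homologue RHEBL1 was not called (0.17 ± 0.08).

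RHEB, the GTPase that activates mTORC1 and so the only gene of the 10 that is not a brake, was at 237, 266 and 235 CPM in Myrrh and 152, 149 and 149.8 CPM in DMSO. The groups were apart, with Myrrh replicate 2 highest. RHEB rose by 0.71 ± 0.06 (adjusted p = 8.03e-12 by edgeR), with means of 246 ± 17.3 CPM in Myrrh and 150.1 ± 1.57 CPM in DMSO. It lies on chromosome 7 at 151466012 to 151520120.

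DEPTOR, which binds and inhibits mTOR, was at 0.838, 1.03 and 0.517 CPM in Myrrh and 0.842, 0.937 and 0.721 CPM in DMSO. These are 54 counts in Myrrh and 67 in DMSO, and the groups overlapped. The ratio of counts was 0.960, with a 95% exact binomial interval of 0.658 to 1.39 that covers counting error only. The log2 fold change was -0.06 ± 0.31 (adjusted p = 0.86 by edgeR). AKT1S1, the RPTOR-binding inhibitor PRAS40, was at 48.9, 52.3 and 54.8 CPM in Myrrh and 45.3, 50.2 and 47.8 CPM in DMSO. Its groups overlapped, and its log2 fold change was 0.12 ± 0.06 (adjusted p = 0.0711 by edgeR). It was called higher with no filter (0.15, adjusted p = 0.0281 by edgeR) and without Myrrh replicate 1 (0.17, adjusted p = 0.0223). Over 15 settings its adjusted p lay between 0.0223 and 0.745, and its sign turned with library totals (-0.02). AKT1S1 on chromosome 19 (49869033 to 49878459) shares 392 of 5737 exonic bases with TBC1D17 on the opposite strand, which rose (0.32 ± 0.06).

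**Figure D3:**
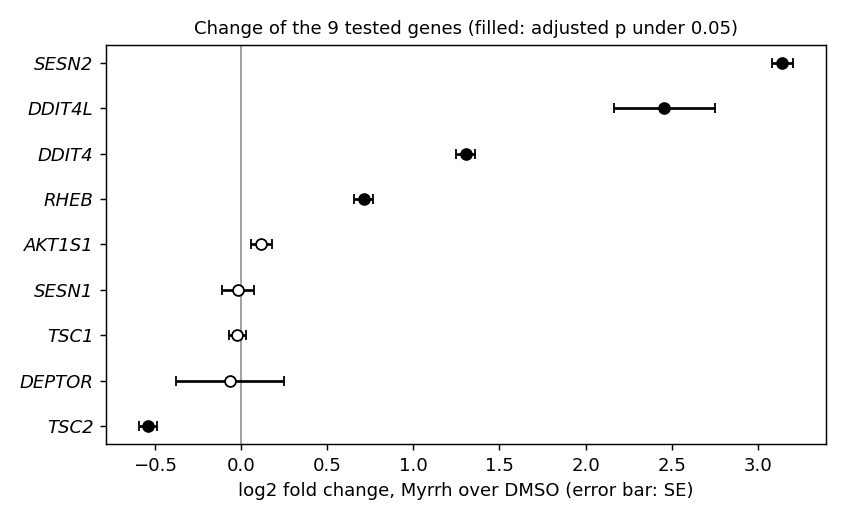
Log2 fold change of Myrrh over DMSO for the 9 genes tested, with standard errors; filled points passed an adjusted p of 0.05 by edgeR's quasi-likelihood test. SESN2 lies at 3.14 and TSC2 at -0.54, and the open points of SESN1, TSC1, DEPTOR and AKT1S1 lie between -0.06 and 0.12; all 4 turn sign under some settings.

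Compared per length, RHEB and DDIT4 were the most abundant of the 10 in both groups. In Myrrh the order of mean TPM was RHEB (319), DDIT4 (241), SESN2 (80.6), TSC2 (61.9), AKT1S1 (38.5), TSC1 (33.0), SESN1 (6.02), DDIT4L (1.24), DEPTOR (0.437) and SESN3 (0.03). No neighbours in that order overlapped between libraries. In DMSO the order was RHEB (190.4), DDIT4 (103), TSC2 (86.0), AKT1S1 (35.0), TSC1 (30.2), SESN2 (8.88), SESN1 (7.14), DEPTOR (0.443), DDIT4L (0.267) and SESN3 (0.0033). There SESN2 (8.13 to 9.89 TPM) and SESN1 (6.56 to 8.15 TPM) overlapped, and the other neighbours did not. SESN2 thus stood in rank 3 in Myrrh, ahead of both TSC genes, and in rank 6 in DMSO. The 10 genes summed to 782 ± 12.8 TPM in Myrrh and 461 ± 1.83 TPM in DMSO (exact permutation p = 0.1, the smallest possible).

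The genes around these brakes moved in both directions, as did all genes tested (39.3% higher, 39.1% lower, median -0.02). Of 10 genes for subunits and assembly factors of the mTOR complexes, 6 rose and 2 fell (median log2 fold change 0.19). MLST8, a subunit of both complexes, rose by 0.65 ± 0.07 and the assembly factor TTI2 by 0.44 ± 0.09. TELO2, which works with TTI2 in folding mTOR, fell by 0.81 (-0.81 ± 0.06) and MAPKAP1, a subunit of mTORC2, by 0.35 (-0.35 ± 0.06). The direction of MAPKAP1 turned on the other deposited scale, where it was at 60.9 to 62.9 TPM in Myrrh and 43.0 to 55.7 TPM in DMSO (0.37 on log2(TPM + 1)). RICTOR, the scaffold of mTORC2, was not called (-0.05 ± 0.05). The kinase gene MTOR and the scaffold gene RPTOR, named after their values were seen, rose by 0.20 ± 0.05 and 0.43 ± 0.07. MTOR averaged 37.6 ± 1.88 TPM in Myrrh and 30.5 ± 2.20 TPM in DMSO.

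Of 16 genes of the GATOR complexes, KICSTOR and the amino acid sensors, 8 rose and 7 fell (median 0.10). This compares with 39.3% higher and 39.1% lower among all genes tested. The sestrins bind GATOR2, which is only a part of this list. BMT2, the sensor SAMTOR that reads S-adenosylmethionine, rose by 1.74 ± 0.07 to 44.9 ± 2.23 CPM in Myrrh, against 13.4 ± 0.578 CPM in DMSO. KICS2, a KICSTOR subunit, rose by 1.15 ± 0.11. The arginine sensor CASTOR1 and its homologue CASTOR2 fell (log2 fold changes -1.01 ± 0.19 and -1.59 ± 0.07). CASTOR1 was low, at 1.83 ± 0.423 CPM in Myrrh and 3.68 ± 0.152 CPM in DMSO. CASTOR2 was at 12.4 ± 0.645 CPM in Myrrh and 37.4 ± 0.937 CPM in DMSO, and its counts are uncertain because near-identical copies exist in the genome. WDR24 of GATOR2 was not called (0.05 ± 0.09).

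In the PI3K-AKT arm, which inhibits the TSC complex, 6 of 14 genes rose and 7 fell (median -0.03). The shares over all genes tested were 39.3% higher and 39.1% lower. The phosphatase gene INPP4B rose by 0.77 ± 0.19 and PIK3R1, a regulatory subunit of PI3K, by 0.51 ± 0.07. AKT2 fell by 0.81 (-0.81 ± 0.05) and PIK3IP1, a PI3K inhibitor, by 0.80 (-0.80 ± 0.22), and PHLPP1 was not called (0.10 ± 0.08). INPP4B (3.34 CPM in Myrrh and 1.96 CPM in DMSO) and PIK3IP1 (1.21 CPM in Myrrh and 2.13 CPM in DMSO) were low. Of 10 genes of AMPK and its kinases, the energy-sensing input to TSC2, 5 rose and 3 fell (median 0.20). The regulatory subunits PRKAB1 (1.21 ± 0.07) and PRKAG1 (0.85 ± 0.06) rose. STRADA (-0.65 ± 0.06) and STK11, the kinase LKB1 that STRADA activates (-0.51 ± 0.06), fell, and the catalytic subunit PRKAA1 was not called (-0.06 ± 0.05).

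Among 12 genes for mTORC1 substrates and outputs, 7 rose and 4 fell (median 0.34), against 39.3% higher and 39.1% lower among all genes tested. GRB10, an adaptor that mTORC1 stabilises, rose by 1.17 ± 0.07, and EIF4EBP1, the translation repressor that mTORC1 phosphorylates, by 1.02 ± 0.06. PDCD4 (-0.71 ± 0.06), a repressor of the helicase eIF4A, and the autophagy kinase gene ULK1 (-0.47 ± 0.06) fell, and RPS6KB2 was not called (0.12 ± 0.07). These are transcript levels, and the activity of mTORC1 was not measured.

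Of the 12 transcription factor genes known to act on sestrin or DDIT4 genes, 11 were tested, 9 rose and 1 fell (median 0.73). Among all genes tested 39.3% rose and 39.1% fell. DDIT3, the factor CHOP, rose by 3.46 ± 0.07 and NFE2L2, which encodes NRF2, by 1.29 ± 0.05. TP73 fell by 0.93 (-0.93 ± 0.15), FOXO1 was not called (-0.14 ± 0.14) and TP63 was under the filter. ATF4, FOXO3, HIF1A, EPAS1 and NR3C1, named after their values were seen, rose too. Their log2 fold changes were 0.96 ± 0.06, 1.09 ± 0.06, 0.55 ± 0.06, 0.89 ± 0.05 and 0.59 ± 0.05.

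Target lists of the factors give a backdrop for the sestrin and DDIT4 values, without the 10 genes in them. Of 11 ATF4 targets, 10 rose, 8 of them at least 2-fold, and 0 fell (median 2.42). Among all genes tested 39.3% were called higher, 11.3% at least 2-fold higher, and 39.1% lower. ATF3 (4.65 ± 0.07) and the transporter subunit SLC3A2 (4.25 ± 0.06) led the ATF4 targets, and VLDLR was not called (-0.20 ± 0.10). Earlier results of these data had already shown the rise of ATF4 targets, so it is no independent evidence.

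Of 11 hypoxia targets tested, 4 rose and 4 fell (median -0.15), against 39.3% higher and 39.1% lower among all genes tested. VEGFA (0.71 ± 0.05) and ADM (0.63 ± 0.06), which encode an angiogenic factor and a vasodilator peptide, rose, ANKRD37 (-1.08 ± 0.14) and PFKFB4 (-0.54 ± 0.08) fell, and the demethylase gene KDM3A was not called (0.01 ± 0.05). Of 6 glucocorticoid targets tested, 4 rose and 1 fell (median 1.06). The phosphatase gene DUSP1 (2.84 ± 0.11) and TSC22D3 (1.28 ± 0.07), which encodes GILZ, rose, the clock gene PER1 fell (-0.30 ± 0.07), and KLF9 was not called (-0.16 ± 0.08). Of 6 FOXO targets, 4 rose and 1 fell (median 0.21), with IRS2 at 1.51 ± 0.06, KLHL24 at 0.64 ± 0.07, the insulin receptor gene INSR at -0.43 ± 0.12 and CCNG2, not called, at -0.06 ± 0.06.

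**Figure D4:**
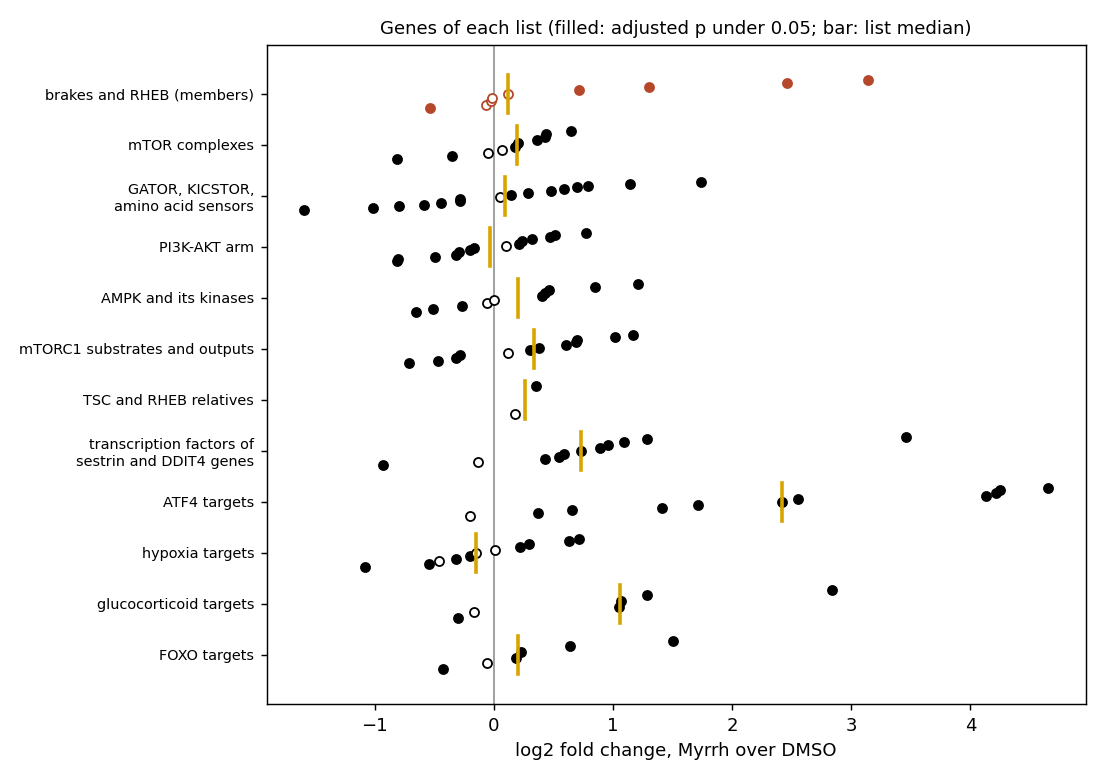
Log2 fold change of Myrrh over DMSO for each tested gene of the 10 members (9 tested, top row) and of 11 lists; filled points passed an adjusted p of 0.05 by edgeR, and vertical bars are list medians. The ATF4 targets have the highest median (2.42), the members have 0.12, and most lists hold filled points on both sides of 0.

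Genes with the most similar profile were found among 11368 named genes with a mean of at least 5 CPM, by the Euclidean distance between log2 CPM values of the 6 libraries, each gene centred on its own mean. Among the 3 nearest to SESN2 were MXD1 (distance 0.115), a MAX-binding repressor, and the chaperone gene HSP90AA1 (0.191). Nearest to DDIT4 were TMX2 (0.0608), HCCS (0.0657) and SLC52A2 (0.0695). Nearest to DDIT4L were FAM110B (0.394), PMEPA1 (0.426) and GEM (0.434). Nearest to SESN1 were TMEM181 (0.0510), TRIM58 (0.0592) and SUCLA2 (0.0801). With 2 groups the distance mostly compares the size of the change, and many genes lie close by.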

How the data were processed

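RNA was measured in 3 Myrrh and 3 DMSO libraries. The authors' deposited estimated counts per gene are not scaled between libraries. The second deposited table holds log2(TPM + 1), TPM being scaled within a library by the authors. The submitters' processing notes name STAR, RSEM 1.3.1 and GRCh38, and no annotation, trimming or strand setting is stated in the sources at hand. The labels give no batch. The authors' counts were not whole in 11.1% to 12.2% of entries and were rounded. Genes were filtered with edgeR's filterByExpr (16395 of 60419 kept), scaled by TMM (factors 0.933 to 0.973 in Myrrh and 1.05 in DMSO) and tested over all 6 libraries with edgeR 4.0.16's quasi-likelihood test (R 4.3.3, two-sided, robust) without a block, with Benjamini-Hochberg adjustment and a threshold of 0.05. Errors are SD over libraries, or SE for log2 fold changes. TPM was recovered from the second table. Shares and ratios were tested by exact permutation. Alternatives used DESeq2 1.42.0, limma 3.58.1, other scalings and filters, a replicate block and leaving out each library. Within groups, chi-square per degree of freedom between libraries was 3.86 to 9.43, above sampling noise. The 10 members and all lists were chosen with earlier results of these data known. Named beside the members were, per list, up to 2 called genes at each end, the uncalled gene with the highest mean CPM, and the 3 nearest profiles; genes sharing exons with a member were added later. Gene positions and exons are from GENCODE release 29 (GRCh38), and promoters from RefSeq on GRCh38.p14. Some genes and 1 target list that these rules cover are not reported here.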

Additional observations from a re-analysis of the deposited data

How the results depend on the processing

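The calls of SESN2, DDIT4, TSC2 and RHEB held in all 15 alternative settings and that of DDIT4L in the 14 that tested it. SESN2 ran from 3.0 to 3.21, DDIT4 from 1.16 to 1.34, TSC2 from -0.68 to -0.47 and RHEB from 0.57 to 0.76, while DDIT4L ran from 0.82 on log2(TPM + 1) to 2.66. Library totals put the median of all genes at -0.16, against -0.02 with TMM, and the log2 fold changes of TSC1 (-0.16) and AKT1S1 (-0.023) moved with it. Members called lower were then 2, as with 5 CPM in 3 libraries. Library totals also gave 0 TSC and RHEB relatives higher, 1 ATF4 target lower, 2 glucocorticoid targets lower, and 2 FOXO targets higher and 2 lower. The 5 CPM filter gave 1 ATF4 target, 2 glucocorticoid and 2 FOXO targets lower, and DESeq2's size factors 2 glucocorticoid targets lower. The 3 limma settings on log2(TPM + 1) or log2(TPM + 0.1) each gave 1 mTOR complex gene, 4 PI3K-AKT genes, 2 hypoxia targets and 0 FOXO targets lower, and 2 TSC and RHEB relatives higher. The cause of these shifts was not tested. Leaving out each library gave 1 to 2 glucocorticoid and 0 to 1 ATF4 targets lower. Signs of uncalled genes turned: SESN1 was 0.0009 by DESeq2, 0.016 with no filter and -0.056 to 0.043 without 1 library. TSC1 was 0.011 with no filter, 0.13 on log2(TPM + 1) under either filter and on log2(TPM + 0.1), and -0.031 to 0.0068 without 1 library, and DEPTOR -0.28 to 0.17. The SESN3 share differed by -0.00139 to 0.0350 percentage points without 1 library. With the replicate block edgeR called 6390 genes higher and 6392 lower, and 4 members higher and 1 lower. Deviations of same-numbered libraries correlated with r of -0.0744 to 0.0457, and 1 of 3 Myrrh libraries correlated best with its own number. No effect shared by number was thus visible, which does not settle whether same-numbered samples were prepared together. Depth limits SESN3, DEPTOR and DDIT4L.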
